A study of Mus musculus with 9 samples.

Results

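A set of 5 complement genes was described across 6 genotypes of mouse gastrocnemius, a calf muscle: C1qa and C1qb, which encode chains of the initiator C1q, the receptor gene C3ar1, the alternative pathway gene Cfb and the inhibitor gene Serping1. Every probe set annotated to these 5 genes was taken, which gave 5 of 8251 named genes and 7 of the 12422 non-control probe sets on the Affymetrix U74Av2 array. All 7 were among the 7453 that passed the filter on dim probe sets. The C1qa (Entrez 12259), C3ar1 (Entrez 12267) and Serping1 (Entrez 12258) genes had 1 probe set each, while C1qb (Entrez 12260) and Cfb (Entrez 14962) had 2 each. The members were chosen by name, with no measured value in the rule, but with earlier results of these data known.

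RNA of 9 individual mice was hybridised, 1 mouse to an array. Mice labelled mdx carry a mutation in the mouse Dmd gene and lack full-length dystrophin, hDMD mice carry a full-length human DMD gene as a transgene, and utrn-/- mice lack utrophin, a related membrane-linking protein. Wild-type mice were of C57Bl/DBA2/129OLA-Ev background, and the labels name no strain for the other genotypes and no promoter or founder line for the transgene. The arrays came from wild-type 1 (female, 7 weeks) and wild-type 2 (male, 7 weeks), and from males of the other genotypes: hDMD 1 (11 weeks), hDMD mdx 1 (24 weeks), hDMD mdx 2 (10 weeks), hDMD mdx utrn-/- 1 (9 weeks), mdx 1 (15 weeks), mdx 2 (13 weeks) and mdx utrn-/- 1 (5 weeks). The 3 arrays of mdx and mdx utrn-/- mice are called dystrophin-lacking and the 6 others dystrophin-carrying, by an intact mouse or a human gene. Ages differed between genotypes, so age and genotype cannot be told apart.

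Levels are log2(value + 16) of quantile normalised intensities, so that 4 is the lowest possible level, and differences are on the same scale, which understates the change of dim genes. The deposited intensities had medians from 1.47 to 45.6 between arrays, and 19.4% to 29.9% of the values of an array were at or below 0. The 9 hybridisation spike-in probe sets split the arrays into 3 bright ones (wild-type 1, hDMD mdx 1 and mdx 2) and 6 dim ones, with a 6.18-fold ratio of the median spike-in signals. Differences between arrays of the same brightness are therefore given beside the pooled ones. Of the 3 bright arrays only mdx 2 is dystrophin-lacking, so each difference between bright arrays rests on this array where the classes are compared. Wild-type 1 is also the only array of a female, so sex and brightness cannot be told apart between the wild-type mice. The dim Dmd probe set, whose place relative to the mutation is not given in the sources used here, lay between 4.49 and 4.95 in the 3 mice without the mdx mutation and from the floor to 4.55 in the 6 with it, and did not pass the filter. The Utrn probe sets, also below the filter, overlapped between mice with and without utrophin. The 14 skeletal muscle fibre markers were all measured and kept, and their summed intensity was 26473 to 28851 in the dystrophin-lacking arrays and 27518 to 30633 in the carrying arrays.

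Complement is a cascade of plasma and cell-surface proteins that tags cells, debris and immune complexes for removal. The classical pathway starts when C1q binds its target and activates the proteases C1r and C1s, which the inhibitor encoded by Serping1 blocks, and the alternative pathway amplifies the cascade through factor B, the product of Cfb. Cleavage of C3 releases the peptide C3a, which acts on myeloid cells through the receptor encoded by C3ar1. Tissue macrophages are the chief makers of C1q, dystrophic muscle is known for macrophage infiltration, and hepatocytes and fibroblasts make the C1 inhibitor.

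Promoter sequences from RefSeq (GRCm38.p6) were found for 2 of the 5 members, C1qb and C3ar1, and for C1qc, the gene of the third C1q chain. They are shown because the probe sets C1qb 96020_at, C1qc 92223_at and C3ar1 103707_at were high in the same 4 arrays, as described further on. The other C1qb probe set, 162276_i_at, did not have this pattern. C1qa, C1qc and C1qb are neighbours in this annotation. Each sequence gives the 250 bases before the annotated gene start, 5' to 3' on the gene's own strand, with matches to GAGGAA or its reverse complement TTCCTC in capitals. The C1qb window lies at chr4:136886201-136886450, the C1qc window at chr4:136892915-136893164 and the C3ar1 window at chr6:122856158-122856407, all on the minus strand.
C1qb: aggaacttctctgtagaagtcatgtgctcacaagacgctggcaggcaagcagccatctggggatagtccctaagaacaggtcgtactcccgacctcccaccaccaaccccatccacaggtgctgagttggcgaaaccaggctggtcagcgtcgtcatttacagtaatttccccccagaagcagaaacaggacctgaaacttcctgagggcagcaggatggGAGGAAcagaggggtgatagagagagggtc
C1qc: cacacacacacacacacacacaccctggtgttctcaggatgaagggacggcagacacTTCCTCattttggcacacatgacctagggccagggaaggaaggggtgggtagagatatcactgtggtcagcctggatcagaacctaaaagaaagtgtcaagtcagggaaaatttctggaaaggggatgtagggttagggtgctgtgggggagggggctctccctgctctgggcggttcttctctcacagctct
C3ar1: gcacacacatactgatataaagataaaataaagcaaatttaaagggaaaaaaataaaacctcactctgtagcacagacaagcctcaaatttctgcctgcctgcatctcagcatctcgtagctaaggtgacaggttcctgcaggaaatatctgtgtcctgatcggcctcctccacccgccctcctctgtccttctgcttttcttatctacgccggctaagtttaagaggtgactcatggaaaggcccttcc

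GAGGAA is a core bound by PU.1, the myeloid transcription factor encoded by Spi1. The C1qb window held it on the gene's strand, 30 to 25 bases before the start. In the C1qc window it stood on the opposite strand, 193 to 188 bases before the start. The C3ar1 window had no match. On either strand the same 6 letters occurred in 23.3% of all 32851 promoter windows of this length. The spaced motifs TTCNNNGAA, bound by STAT factors, and GAAANNGAA, bound by interferon regulatory factors, had no match in the 3 windows and occurred in 7.02% and 7.13% of all windows, searched on both strands. None of these motifs overlapped another in the 3 windows. These matches describe letters only. The Spi1 probe set itself was 0.68 higher in the dystrophin-lacking arrays (limma, adjusted p = 0.802).

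The first comparison asked which complement transcripts follow the presence of full-length dystrophin, mouse or human. C3ar1, C1qb 96020_at and C1qa had higher means in the 3 dystrophin-lacking arrays than in the 6 carrying ones, by 1.52, 1.30 and 0.85. The other C1qb probe set, 162276_i_at (-0.03), Serping1 and both Cfb probe sets did not share this pattern. None of the 7 probe sets passed the adjusted threshold of 0.05 in limma, beside 9 of the 7453 kept probe sets (0.121%). At an unadjusted p under 0.05 there were 3 of 7, all higher, beside 3.26% of all kept probe sets in that direction and 5.58% in either. In bulk tissue, fewer cells of a type and less RNA per cell cannot be told apart.

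**Figure D1:**
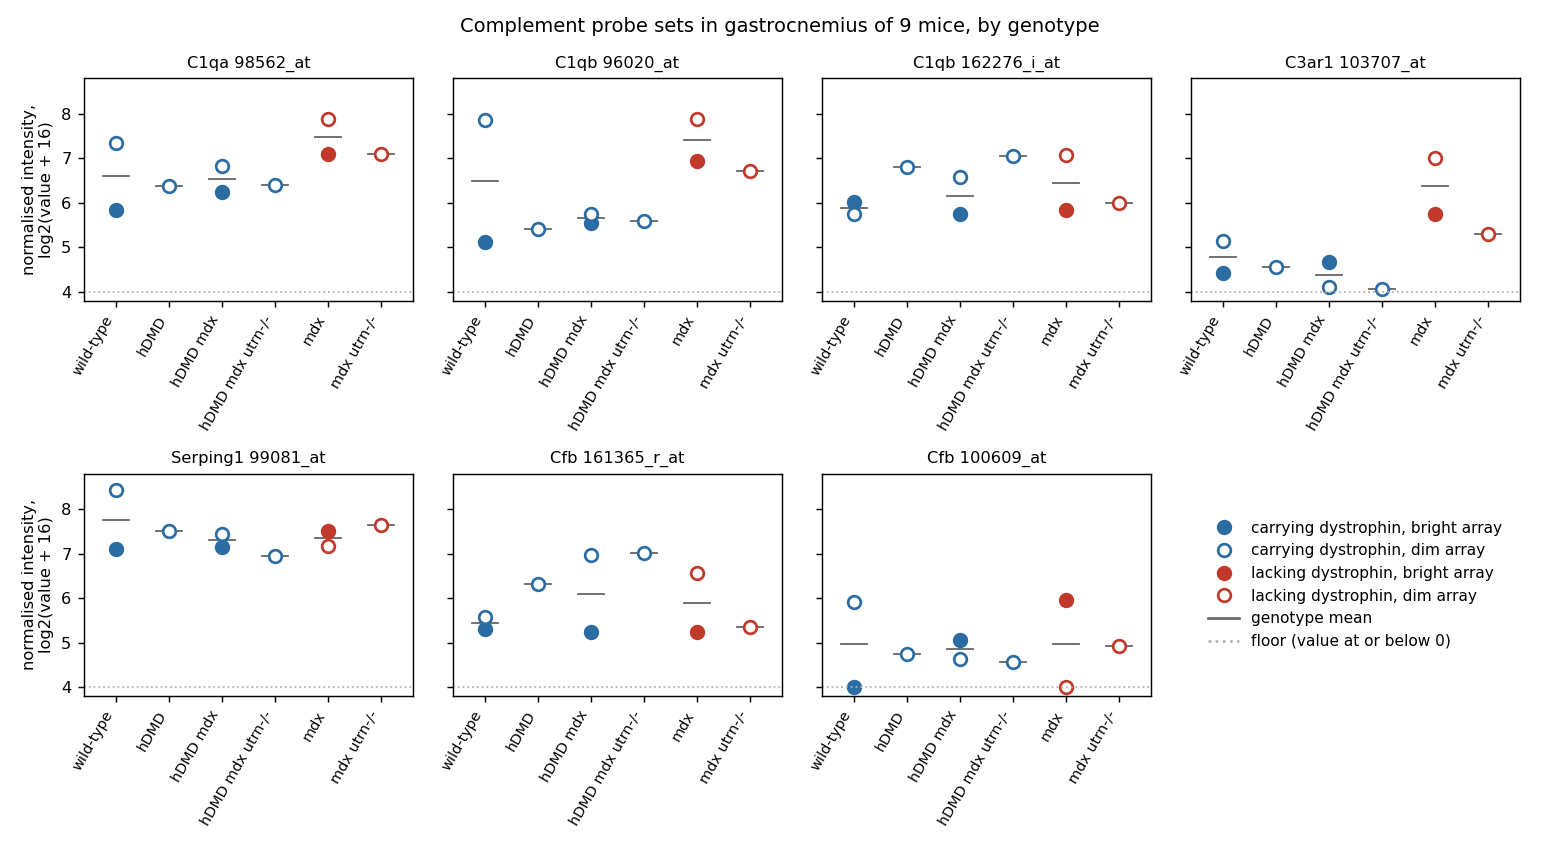
Normalised intensity, log2(value + 16), of the 7 complement probe sets by genotype, with 1 point per array filled for bright arrays, and a short line at each genotype mean. C3ar1 lay between 5.29 and 7.00 in the dystrophin-lacking arrays and between 4.06 and 5.14 in the carrying arrays, while Serping1 and both Cfb probe sets overlapped between the classes.

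C1qa encodes the A chain of C1q. Its probe set 98562_at gave 7.88 in mdx 1 and 7.10 in mdx 2, with mdx utrn-/- at 7.11. In the carrying arrays it gave 5.85 and 7.34 in wild-type 1 and 2, 6.24 and 6.83 in hDMD mdx 1 and 2, 6.38 with hDMD alone and 6.41 with hDMD mdx utrn-/-. The lacking arrays were thus above 5 of the 6 carrying arrays and overlapped with wild-type 2. The means were 7.36 ± 0.45 (SD, n = 3) and 6.51 ± 0.52 (SD, n = 6), a difference of 0.85 ± 0.33 (SE; 95% interval 0.14 to 1.57; limma, adjusted p = 0.802). Between bright arrays the difference was 1.06, and between dim arrays 0.75. Without wild-type 2 the difference was 1.02 (adjusted p = 0.309).

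C1qb encodes the B chain. Its probe set 96020_at gave 7.89 in mdx 1 and 6.94 in mdx 2, with mdx utrn-/- at 6.71. It gave 5.13 and 7.87 in wild-type 1 and 2, 5.55 and 5.75 in hDMD mdx 1 and 2, 5.42 with hDMD alone and 5.59 with hDMD mdx utrn-/-. Wild-type 2 lay at the level of mdx 1, and the 5 other carrying arrays lay between 5.13 and 5.75, all below the lacking arrays. The means were 7.18 ± 0.63 (SD, n = 3) and 5.88 ± 0.99 (SD, n = 6), a difference of 1.30 ± 0.53 (SE; 95% interval 0.14 to 2.45; limma, adjusted p = 0.862), or 1.60 between bright and 1.14 between dim arrays. Without wild-type 2 the carrying mean was 5.49 ± 0.23 (SD, n = 5) and the difference 1.69 ± 0.29 (SE; limma, adjusted p = 0.0856).

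The other C1qb probe set, 162276_i_at, whose suffix marks an incomplete set of probes in Affymetrix naming, did not show this pattern. It gave 7.07 in mdx 1 and 5.83 in mdx 2, with mdx utrn-/- at 5.99, against 6.01 and 5.74 in wild-type 1 and 2, 5.75 and 6.59 in hDMD mdx 1 and 2, 6.80 with hDMD alone and 7.05 with hDMD mdx utrn-/-. The classes overlapped across their whole range, and the difference was -0.03 ± 0.37 (SE; 95% interval -0.84 to 0.79). The bright arrays, of 3 genotypes, lay close together between 5.75 and 6.01, while the dim arrays spread from 5.74 to 7.07. The 2 probe sets of C1qb thus disagree, and which of them follows the transcript was not tested.

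C3ar1 encodes the receptor for C3a. Its probe set 103707_at gave 7.00 in mdx 1 and 5.75 in mdx 2, with mdx utrn-/- at 5.29. It gave 4.42 and 5.14 in wild-type 1 and 2, 4.67 and 4.10 in hDMD mdx 1 and 2, 4.55 with hDMD alone and 4.06 with hDMD mdx utrn-/-. It was the only member whose classes did not overlap, beside 1.52% of all kept probe sets that did not overlap in this direction, although the gap between mdx utrn-/- and wild-type 2 was narrow. On the linear scale the normalised intensity was 112 in mdx 1, 37.8 in mdx 2, 23.2 in the mdx utrn-/- array, and between 0.6 and 19.3 in the carrying arrays, so most of those lay close to the floor.

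The C3ar1 means were 6.01 ± 0.88 (SD, n = 3) in the lacking and 4.49 ± 0.40 (SD, n = 6) in the carrying arrays. The difference of 1.52 ± 0.37 (SE; 95% interval 0.72 to 2.32; limma, adjusted p = 0.377) lay at the 99.6th percentile of all kept probe sets. Between bright arrays it was 1.20, and between dim arrays 1.69. Its size depends on the pseudocount, with 3.01 at a pseudocount of 1 and 0.71 at 64. Without mdx 1, the highest array, it was 1.03.

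Cfb encodes factor B, the protease of the alternative pathway. Its probe set with the higher mean, 161365_r_at, whose suffix marks a set designed with some rules dropped, gave 6.57 in mdx 1 and 5.23 in mdx 2, with mdx utrn-/- at 5.35, against 5.29 and 5.58 in wild-type 1 and 2, 5.24 and 6.96 in hDMD mdx 1 and 2, 6.32 with hDMD alone and 7.01 with hDMD mdx utrn-/-. The classes overlapped, while the bright arrays (5.23 to 5.29) lay below all the dim ones (5.35 to 7.01) whatever their genotype. The class difference was -0.35 ± 0.47 (SE; 95% interval -1.38 to 0.68), or -0.04 between bright and -0.51 between dim arrays.

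The other Cfb probe set, 100609_at, was at the floor of 4 in mdx 1 and in wild-type 1. It gave 5.95 in mdx 2 and 4.92 in mdx utrn-/-, and 5.92 in wild-type 2, 5.07 and 4.62 in hDMD mdx 1 and 2, 4.74 with hDMD alone and 4.57 with hDMD mdx utrn-/-. Mice of one genotype were farther apart here than the class means, whose difference was 0.14 ± 0.45 (SE; 95% interval -0.85 to 1.12). It was 1.42 between bright and -0.50 between dim arrays, of opposite sign. The 2 Cfb probe sets did not rank the arrays alike: mdx 2 had the lowest value on the first and the highest on the second.

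Serping1 encodes the C1 inhibitor. Its probe set 99081_at gave 7.18 in mdx 1 and 7.52 in mdx 2, with mdx utrn-/- at 7.65, against 7.11 and 8.42 in wild-type 1 and 2, 7.15 and 7.45 in hDMD mdx 1 and 2, 7.52 with hDMD alone and 6.94 with hDMD mdx utrn-/-. Wild-type 2 was the highest array, and the other 8 lay between 6.94 and 7.65 with the classes mixed. The means were 7.45 ± 0.24 (SD, n = 3) and 7.43 ± 0.53 (SD, n = 6), a difference of 0.02 ± 0.31 (SE; 95% interval -0.66 to 0.71; limma, adjusted p = 0.999). The interval leaves room for a difference of either sign. Between bright arrays the difference was 0.39, and between dim ones -0.16.

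**Figure D2:**
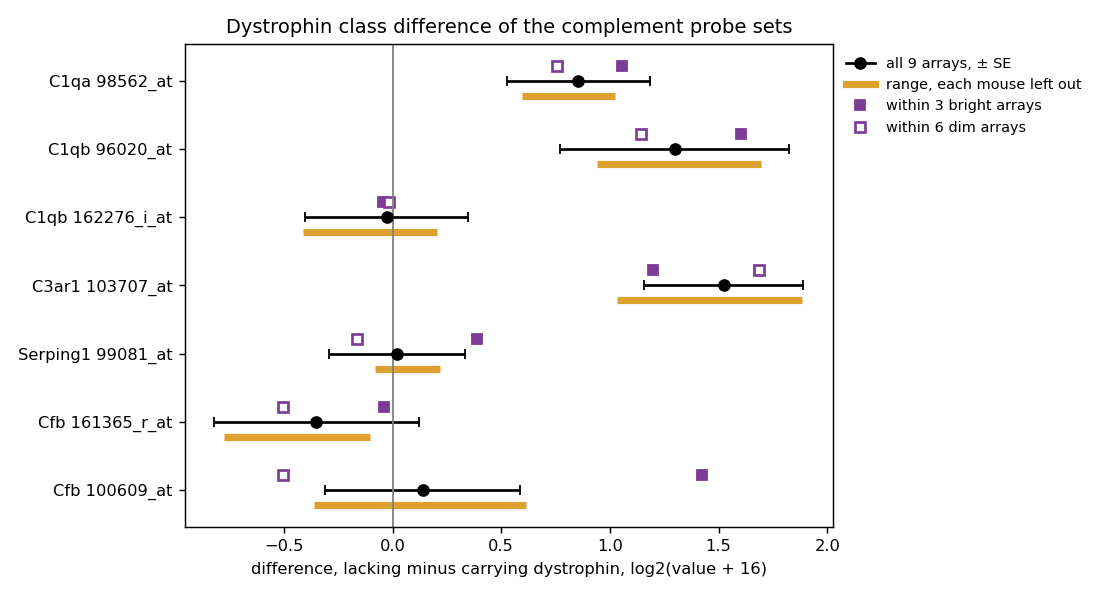
Dystrophin-lacking minus dystrophin-carrying difference of the 7 complement probe sets on the log2(value + 16) scale, for all 9 arrays (circle, with its SE), as the range with each mouse left out in turn (bar), for the bright arrays (filled square) and for the dim arrays (open square). C3ar1, C1qb 96020_at and C1qa lay above 0 in each, and the Serping1 and Cfb 100609_at differences changed sign between bright and dim arrays.

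Wild-type 2 was the one carrying array with high C1qa, C1qb 96020_at and C1qc, and it also had high levels of markers of other cell types. The list of 20 macrophage markers had 18 measured and 14 kept. Their summed intensity was 1006 to 1797 in the lacking arrays, 267 to 386 in 5 carrying arrays and 1256 in wild-type 2. The 14 kept markers were all higher in the mean of the lacking arrays, with a median difference of 0.92 against -0.01 for all kept probe sets, 8 at an unadjusted p under 0.05 and none passing the adjusted threshold (limma, smallest adjusted p = 0.298). No macrophage marker was at the floor in all arrays, but Adgre1, which encodes the F4/80 antigen, lay between the floor and 5.10 and was not kept. Of the measured markers not kept, Adgre1 and Marco had lower means in the lacking arrays (4.21 against 4.25, and 4.23 against 4.48). Fcer1g and Aif1 had higher ones (4.35 against 4.05, and 4.21 against 4.04). Serving as a score per array, the median deviation of the 14 kept markers from their own means was 0.79 in wild-type 2, 0.52 in mdx utrn-/-, 0.59 in mdx 2 and 1.10 in mdx 1, and between -0.74 and -0.32 in the other 5.

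The arrays thus fell into 4 with a macrophage score above 0 and 5 below. C1qa was 7.10 to 7.88 in the 4 and 5.85 to 6.83 in the 5. C1qb 96020_at was 6.71 to 7.89 and 5.13 to 5.75. C3ar1 was 5.14 to 7.00 and 4.06 to 4.67. C1qb 162276_i_at, Serping1 and both Cfb probe sets overlapped between the 4 arrays and the 5. The share of all kept probe sets that separate these arrays was not computed. The split was also made from the same arrays, so these ranges are a description only. Haptoglobin (Hp), on the hepatocyte list, had the same 4 highest arrays, so the split was not particular to macrophage markers. After the bright and the dim means were subtracted, Pearson's r with the macrophage score was 0.934 for C1qa, 0.976 for C1qb 96020_at and 0.882 for C3ar1. With a score made likewise from the fibroblast markers below it was 0.733, 0.900 and 0.670. The part of macrophage content, or of other cell types, in the C1q and C3ar1 differences was not tested.

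**Figure D3:**
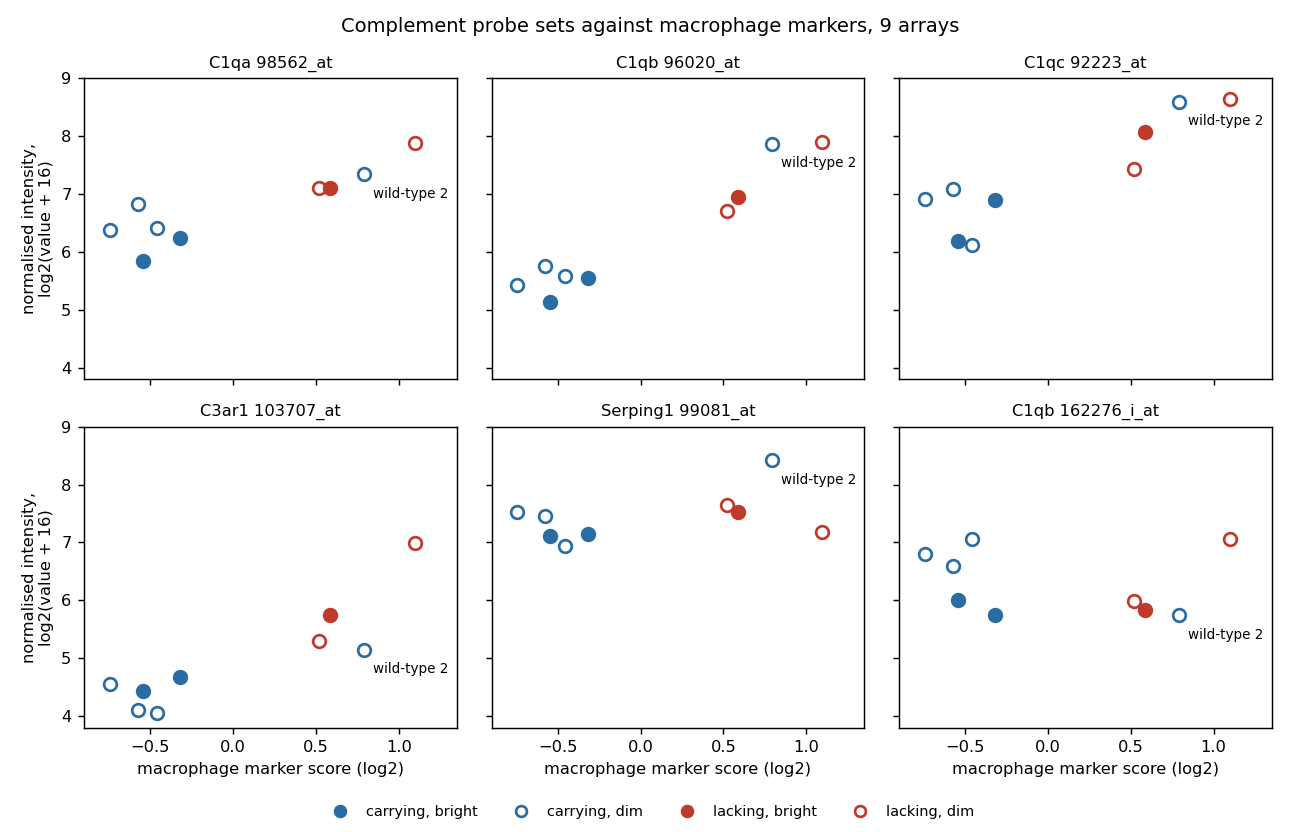
Normalised intensity, log2(value + 16), of C1qa, C1qb, C1qc, C3ar1 and Serping1 probe sets in each of the 9 arrays against the macrophage marker score (median log2 deviation of 14 markers), with dystrophin class by colour and bright arrays filled. The 4 arrays with a score above 0, among them wild-type 2, were the 4 highest for C1qa, C1qb 96020_at, C1qc and C3ar1.

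Markers of other cells that can make complement were also compared. The 12 fibroblast markers were all kept, 10 had a higher mean in the lacking arrays, and the median difference was 0.41 with none passing. Their summed intensity was 3292 to 4040 in the lacking arrays, 2112 to 3468 in 5 carrying arrays and 5774 in wild-type 2, the array with the highest Serping1. Among the lacking arrays mdx 1 had the highest fibroblast sum, 4040, and the lowest Serping1, 7.18. After the bright and the dim means were subtracted, Serping1 had Pearson's r = 0.645 and Spearman's rho = 0.350 with the fibroblast score. The part of fibroblast content in the Serping1 values was not tested. Of 10 hepatocyte markers, 8 were measured and 1 kept, haptoglobin (Hp), with a difference of 1.08. The hepatocyte markers Apoa1 and Ahsg were at the floor in all 9 arrays and Alb lay between the floor and 4.94. Of 8 neutrophil markers kept, 7 had a higher mean in the lacking arrays (median 0.67), which rests on 1 array: the summed intensity of the neutrophil list was 2560 in mdx utrn-/- but 243 and 91.4 in mdx 1 and 2, and 76.5 to 370 in the carrying arrays. In mdx against wild-type none of the 8 neutrophil markers was higher (median -0.60), and in mdx utrn-/- against mdx all 8 were (median 2.82), of which 2 passed the adjusted threshold (S100a8 and S100a9, adjusted p = 0.0195 each in limma, named after their values were seen). Of 4 T and B lymphocyte markers kept, none had a higher mean (median -0.36). Adipocyte markers were split, with 5 of 9 higher (median 0.01). Their summed intensity was 1654 to 3418 in the lacking arrays, 1264 to 3990 in 5 carrying arrays and 8145 in wild-type 2. The part of adipocyte content in the complement values of wild-type 2 was not tested. Of the interferon response genes, 6 of 9 were higher (median 0.18). Of 14 muscle fibre markers 3 were higher (median -0.07). All 10 regenerating fibre markers were higher (median 1.26), and 2 of them passed the adjusted threshold, the embryonic myosin genes Myh3 (2.24, adjusted p = 0.0203) and Myl4 (2.44, adjusted p = 0.00344), named after their values were seen.

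Among the other complement genes, 51 were listed, 30 were measured and 17 kept. Of these 17, 10 had a higher and 7 a lower mean in the dystrophin-lacking arrays, none passed and 2 reached an unadjusted p under 0.05, both higher (C1qc and Itgax). The median difference was 0.06, and the smallest adjusted p was 0.875. The difference was largest for C1qc (Entrez 12262), the C chain of C1q, whose probe set 92223_at gave 8.59 in wild-type 2, 7.44 in mdx utrn-/-, 8.08 in mdx 2 and 8.65 in mdx 1. Its 5 other carrying arrays lay between 6.12 and 7.09, so the third chain had the same 4 high arrays as C1qa and C1qb 96020_at. The class difference of C1qc was 1.09 ± 0.49 (SE; limma, adjusted p = 0.875).

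The next largest differences were 0.72 ± 0.31 (SE) for Itgax, an integrin chain of complement receptor type 4 found on myeloid cells, and 0.68 ± 0.41 (SE) for Clu, which encodes the fluid-phase terminal pathway inhibitor clusterin. Cd93, once described as a C1q receptor, differed by 0.66 ± 0.36 (SE) and Cfp, the gene of the alternative pathway stabiliser properdin, by 0.41 ± 0.42 (SE). Cd59b, a membrane inhibitor of the terminal complex, had the opposite sign, with -0.38 ± 0.26 (SE). None of these 5 passed the adjusted threshold.

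The human gene was then examined on the dystrophin-deficient backgrounds, where 3 carriers (2 hDMD mdx and 1 hDMD mdx utrn-/-) were set against 3 non-carriers (2 mdx and 1 mdx utrn-/-) with utrophin genotype as an additive term. C1qa, C1qb 96020_at and C3ar1 had lower means in the carriers, by 0.87 to 1.74, and their carriers did not overlap with the non-carriers. None of the 7 members passed the adjusted threshold, as none of the 7453 kept probe sets did (0%). At an unadjusted p under 0.05 there were 3 of 7, all lower, beside 3.56% of kept probe sets lower and 5.49% in either direction, and probe sets without overlap in the lower direction made up 5.30%. This comparison shares all 6 arrays with the class comparison, so it is no separate evidence, and the genotype comparisons that follow also draw on the same 9 arrays.

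For C3ar1 the carrier mean was 4.28 and the non-carrier mean 6.01, a difference of -1.74 ± 0.41 (SE, n = 3 and 3; 95% interval -2.69 to -0.79; limma, adjusted p = 0.404). For C1qb 96020_at the means were 5.63 and 7.18, a difference of -1.55 ± 0.35 (SE; 95% interval -2.36 to -0.75; limma, adjusted p = 0.385). For C1qa the difference was -0.87 ± 0.33 (SE; 95% interval -1.64 to -0.10; limma, adjusted p = 0.827). Wild-type 2 takes no part in this comparison. Serping1 differed by -0.27 ± 0.29 (SE; 95% interval -0.96 to 0.42), within its spread. The median of the macrophage markers was -1.05 here, with 12 of 14 lower, and that of the fibroblast markers -0.86. The part of either cell type in the C1q and C3ar1 differences was not tested. Of the 17 other complement genes kept, 11 were lower and 6 higher (median -0.19), with 3 lower ones at an unadjusted p under 0.05, none passing (smallest adjusted p = 0.377) and C1qc at -1.35.

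On the mdx background alone, hDMD mdx against mdx, C3ar1 differed by -1.99 ± 0.52 (SE, n = 2 and 2; limma, adjusted p = 1). It was -1.08 between the bright and -2.90 between the dim mice. C1qb 96020_at differed by -1.77 ± 0.84 and C1qa by -0.95 ± 0.57, while Serping1 differed by -0.05 ± 0.48 (SE each). These C3ar1, C1qb and C1qa groups did not overlap, beside 13.1% of all kept probe sets that separated in this direction. In this comparison too 0 of 7 members and 0% of probe sets passed, and 1 of 7 had an unadjusted p under 0.05 against 2.88% of all.

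Without replication, the utrophin-deficient pair gave these values. C3ar1 was 5.29 without the human gene (mdx utrn-/-) and 4.06 with it (hDMD mdx utrn-/-), C1qb 96020_at 6.71 and 5.59, C1qa 7.11 and 6.41, and Serping1 7.65 and 6.94. The Cfb probe set 161365_r_at had the other order, with 5.35 and 7.01, and so had C1qb 162276_i_at, with 5.99 and 7.05. Cfb 100609_at was 4.92 and 4.57. Whether the human gene's difference varied with utrophin was tested as an interaction, mdx background minus mdx utrn-/- background. It was -0.75 ± 0.90 for C3ar1, -0.65 ± 1.45 for C1qb 96020_at and -0.26 ± 0.99 for C1qa (SE each), each smaller than its error. The same held for Serping1 (0.67 ± 0.84) and Cfb 100609_at (0.21 ± 1.39). For C1qb 162276_i_at (-1.35 ± 0.89) and Cfb 161365_r_at (-1.45 ± 1.16) the interaction was larger than its error. It rests on 1 mouse in each utrophin-deficient group.

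Loss of mouse dystrophin alone, mdx against wild-type, showed C3ar1 at 6.37 against 4.78, a difference of 1.59 ± 0.52 (SE, n = 2 and 2; limma, adjusted p = 1), with 1.32 between the bright and 1.86 between the dim mice. The groups did not overlap, beside 11.2% of all kept probe sets in that direction. C1qb 96020_at differed by 0.92 ± 0.84 (SE), with 1.82 between the bright but 0.03 between the dim mice, the pair that holds wild-type 2. The C1qb value was 2.29 without wild-type 2 and -0.45 without wild-type 1. C1qa differed by 0.90 ± 0.57 and Serping1 by -0.41 ± 0.48 (SE each), and without wild-type 2 these were 1.65 and 0.24. None of 7 members and 0% of all passed, and 1 of 7 had an unadjusted p under 0.05 beside 1.74%.

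The remaining comparisons gave no member at an unadjusted p under 0.05 and none past the adjusted threshold. In hDMD mdx against wild-type, where 0% of all kept probe sets passed and 0.832% had an unadjusted p under 0.05, C3ar1 differed by -0.40 ± 0.52, C1qb 96020_at by -0.85 ± 0.84, C1qa by -0.06 ± 0.57 and Serping1 by -0.46 ± 0.48 (SE each). The C1qb value was 0.42 between the bright and -2.12 between the dim mice, and without wild-type 2 the values of C1qb, C1qa and Serping1 turned to 0.52, 0.69 and 0.19. In hDMD against wild-type (0% and 1.82% of all), C3ar1 differed by -0.23 ± 0.64, C1qb 96020_at by -1.07 ± 1.03, C1qa by -0.21 ± 0.70 and Serping1 by -0.25 ± 0.59 (SE each), and without wild-type 2 all 4 turned positive, at 0.12, 0.30, 0.54 and 0.41. In mdx utrn-/- against mdx (0.0268% and 3.84% of all), C3ar1 differed by -1.08 ± 0.64, C1qb 96020_at by -0.71 ± 1.03, C1qa by -0.38 ± 0.70 and Serping1 by 0.30 ± 0.59 (SE each). The last 2 comparisons rest on 1 mouse in a group, which was assumed to vary like the rest. The interaction of the human gene with the mdx background, mdx minus wild-type, was -1.75 ± 0.82 (SE; limma, adjusted p = 1) for C3ar1.

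Ordered by genotype mean, C1qa ran from mdx (7.49) through mdx utrn-/- (7.11), wild-type (6.60), hDMD mdx (6.54) and hDMD mdx utrn-/- (6.41) to hDMD (6.38). C1qb 96020_at had the same order, from 7.42 in mdx to 5.42 in hDMD. C3ar1 ran from mdx (6.37) through mdx utrn-/- (5.29), wild-type (4.78), hDMD (4.55) and hDMD mdx (4.39) to hDMD mdx utrn-/- (4.06). No step between neighbours in these 3 orders exceeded 2 standard errors. The step between mdx and mdx utrn-/- for C3ar1 was the widest in standard errors, at 1.70.

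The genes whose pattern was most like each member were taken by Pearson's r over the 9 arrays, after the means of the bright and of the dim arrays had been subtracted from each gene. Nearest to C1qa were Akr1a1 (r = 0.962), Evi2a (r = 0.960), Ctss (r = 0.957) and Igfbp4 (r = 0.949). Nearest to C1qb 96020_at were Anxa1 (r = 0.971), Ly6e (r = 0.964), Cyba (r = 0.963) and Ccl9 (r = 0.958). Nearest to C3ar1 were Cstb (r = 0.971), S100a13 (r = 0.964), Akr1a1 (r = 0.962) and Plp2 (r = 0.961). Ctss encodes the lysosomal protease cathepsin S and is in the macrophage list, and Cyba encodes a subunit of the phagocyte oxidase. Serping1 had other neighbours, with Rasd1 (r = 0.983), Cavin2 (r = 0.954), Selenof (r = 0.945) and Ncoa4 (r = 0.942), and so had Cfb 161365_r_at, with Uts2r (r = 0.976), Oca2 (r = 0.969), Tmem150a (r = 0.966) and Plxnb2 (r = 0.966). These are the highest values among all kept probe sets over 9 arrays, which for C1qa, C1qb 96020_at and C3ar1 fall into the 4 and the 5 described above, and they are given as a description.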

How the data were processed

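Transcripts were measured in gastrocnemius of 9 mice, 1 Affymetrix U74Av2 array each. RNA was extracted with Trizol and RNeasy columns, reverse transcribed (SuperscriptII, T7-dT24 primer) and labelled with an Enzo kit, per the labels' protocols. The authors deposited linear intensities per probe set, some of them negative. How these were computed and scaled is not given in the sources used here. Of 12488 probe sets, 66 controls were left out. Intensities were quantile normalised over the 9 arrays, values below 0 were set to 0, 16 was added and log2 taken. Probe sets with a mean above the 40th percentile were kept (7453). Tests were two-sided, in limma 3.58.1 (lmFit, eBayes; R 4.3.3), adjusted by Benjamini-Hochberg over the kept probe sets at 0.05. The class fit had 7 residual degrees of freedom, the genotype and human gene fits 3 each. The fit was tested on simulated data. The number of arrays limits the precision.

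Probe sets were named from the platform annotation, and symbols were updated by Entrez identifier. Of 12422 probe sets, 10833 had 1 symbol, 396 several and 1193 none listed. Every member probe set was named, with the 6 other complement genes of largest class difference and the 4 genes most like each member's brightest probe set. In lists, the brightest probe set stood for its gene. The members, lists and tests were chosen with earlier results of these data known. Promoters and motifs were added for description. Alternatives were deposited values without normalisation, no filter, other pseudocounts, eBayes with a trend, age, the human gene or array brightness as a term, subsets of arrays and each mouse left out.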

Additional observations from a re-analysis of the deposited data

Results flagged for a closer look

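The C1qb 96020_at value of wild-type 2, 7.87, stood far from the other 5 dystrophin-carrying arrays, which lay between 5.13 and 5.75. Its gap to the next array was 0.773 of the range of the 6 arrays, above Dixon's critical value for 6 values. Chance gives a gap that reaches the critical value in about 5% of groups. The 7 member probe sets were each examined in this class. The 6 arrays mix genotypes, and bright with dim arrays, which the test does not take into account. The Serping1 value of wild-type 2, 8.42, had a gap of 0.607 and did not reach the critical value.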

How the results depend on the processing

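The counts of members called were 0 under all 124 combinations of comparison and alternative. Of 931 member differences under alternatives, 839 kept their direction and 92 reversed. The class differences and human gene differences of C1qa, C1qb 96020_at and C3ar1 kept their direction under all alternatives, and none passed the adjusted threshold. With 1 mouse left out, the class difference ranged from 0.60 to 1.02 for C1qa, from 0.94 to 1.69 for C1qb 96020_at and from 1.03 to 1.88 for C3ar1, and the human gene difference of C3ar1 from -2.02 to -1.31. The smallest adjusted p over all alternatives of these class differences was 0.0856, for C1qb without wild-type 2. Brightness as a block gave class adjusted p-values of 0.196 for C3ar1, 0.325 for C1qa and 0.439 for C1qb 96020_at.

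The cause of each reversal was not tested. On deposited values without normalisation, Serping1 was -0.10 in the class comparison, 0.49 in hDMD mdx against mdx and -0.997 in mdx utrn-/- against mdx, and in hDMD mdx against wild-type C1qa was 0.58, C1qb 96020_at 0.032, C3ar1 0.41 and Serping1 0.11. At a pseudocount of 1 the class difference of Cfb 100609_at was -0.12. On the dim arrays alone the class difference was -0.16 for Serping1 and -0.50 for Cfb 100609_at, and Serping1 was 0.27 in hDMD mdx against mdx. With age as a term, Serping1 was 0.025 in hDMD mdx against mdx and C1qa 0.28 in hDMD mdx against wild-type. With the human gene as a term, class differences were 0.42 for C1qb 162276_i_at, -0.31 for Serping1, 0.28 for Cfb 161365_r_at and -0.0031 for Cfb 100609_at. On the bright arrays alone, an alternative chosen after seeing the data, Serping1 was 0.41 in mdx against wild-type, and in hDMD mdx against wild-type C1qa was 0.40, C1qb 96020_at 0.42, C3ar1 0.25 and Serping1 0.041.

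With 1 mouse left out, reversals gave these ranges. In the class comparison C1qb 162276_i_at ran from -0.41 to 0.21, Serping1 from -0.081 to 0.22 and Cfb 100609_at from -0.36 to 0.62. In mdx against wild-type C1qb 96020_at ran from -0.45 without wild-type 1 to 2.29 without wild-type 2, and Serping1 from -1.07 to 0.24. In hDMD mdx against mdx Serping1 ran from -0.22 to 0.12. In hDMD mdx against wild-type C1qa ran from -0.81 to 0.69, C1qb 96020_at from -2.22 to 0.52 and Serping1 from -1.12 to 0.19. In hDMD against wild-type C1qa ran from -0.96 to 0.54, C1qb 96020_at from -2.44 to 0.30, C3ar1 from -0.59 to 0.12 and Serping1 from -0.90 to 0.41. In mdx utrn-/- against mdx C1qa ran from -0.78 to 0.0072.

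No paired analysis was possible because the labels give no replicate numbers that pair mice across genotypes. With 1 or 2 mice per genotype, differing ages and an unknown scale of the deposited values, these arrays could not resolve small differences, and probe sets near the floor, such as C3ar1 in the carrying arrays, have fold sizes set by the pseudocount.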

Other observations

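C5ar1, which encodes the receptor for C5a on myeloid cells, was chosen here after its values were seen. It lay between 4.91 and 5.22 in the bright arrays and between 6.07 and 7.04 in the dim ones, whatever the genotype.

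Haptoglobin (Hp), an acute phase protein gene also used in adipocytes and also chosen after its values were seen, was highest in wild-type 2 at 10.45 and lowest in wild-type 1 at 6.47, so that the 2 mice of this genotype held both ends of its range over the 9 arrays. It was 9.11 and 9.40 in mdx 1 and 2 and 9.07 in mdx utrn-/-. In the other carrying arrays Hp was 8.17 and 7.31 in hDMD mdx 1 and 2, 7.98 with hDMD alone and 8.29 with hDMD mdx utrn-/-. Its 4 highest arrays were thus the 4 with a macrophage score above 0.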
